A study of Mus musculus with 371 samples.

Results

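The genes described here are the subunits of the mitochondrial respiratory chain and of ATP synthase that are encoded in the nucleus. They were chosen by symbol in a table of gene-level FPKM (fragments scaled to transcript length and library size): the Nduf genes with a letter a, b, c, s or v and a number for complex I, Sdha to Sdhd for complex II, genes starting with Uqcr for complex III, Cox4 to Cox8 genes for complex IV, and genes starting with Atp5 for complex V. The rule found 83 of the 23362 genes used, with 36 in complex I, 4 in complex II, 8 in complex III, 18 in complex IV and 17 in complex V. The values come from single T cells that were sorted from B16F10 tumours, a transplanted melanoma line, of C57BL/6 mice and sequenced by Smart-seq2, which copies full-length transcripts from 1 cell. The series asks which T cell genes in the tumour depend on the receptor for the cytokine IL-27. There were 4 pools of cells, labelled WT CD8 and WT CD4 (wild type) and KO CD8 and KO CD4 (genotype IL27raKO), all from tumour tissue of mice with no drug or time point named in the labels. The labels do not say which part of Il27ra was deleted, in which cells, or how many animals gave each pool. Their treatment text names only CD8+ T cells, also for the cells titled CD4.

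Oxidative phosphorylation moves electrons from NADH (through complex I) and succinate (through complex II) to ubiquinone, then through complex III and cytochrome c to complex IV, which reduces oxygen. Complexes I, III and IV pump protons across the inner mitochondrial membrane, and complex V, ATP synthase, lets them flow back to make ATP. Most subunits are nuclear genes whose proteins are imported, and a small core of subunits is encoded by mitochondrial DNA. In T cells this machinery is known to expand with activation, and reduced mitochondrial function is known from exhausted T cells in tumours.

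A cell was kept where at least 1000 genes reached 1 FPKM, which held for 90 of 94 in the pool labelled WT CD8, 86 of 90 in KO CD8, 85 of 94 in WT CD4 and 89 of 93 in KO CD4. Each pool carries 1 name in the titles and has no replicate, so genotype and pool cannot be told apart. The titles of CD8 cells end in p1 and those of CD4 cells in p2, a tag the labels do not explain, so sort and tag cannot be told apart either. No test between pools was made, and spreads are over the cells of 1 pool. The genes reaching 1 FPKM in a cell numbered a median of 2148 and 1955 in the WT and KO CD8 pools and 1661 and 1868 in the WT and KO CD4 pools. The targeted gene, Il27ra, did not separate the labels: it reached 1 FPKM in 51.1% and 50.6% of the WT CD8 and WT CD4 cells and in 53.5% and 50.6% of the KO CD8 and KO CD4 cells. A sum over the whole gene can hold reads from exons outside a deletion, so this value does not check the genotype, and WT and KO below mean the pools labelled so. Cd4 was below 1 FPKM in all cells of both CD8 pools and at or above it in 87.1% and 87.6% of the WT and KO CD4 cells, and Cd8a or Cd8b1 was found in 92.2% and 97.7% of the CD8 cells against 25.9% and 22.5% of the CD4 cells. None of the 13 subunits encoded by mitochondrial DNA was found by symbol in the table, so they were not analysed here.

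A gene was called measured where the share of cells at 1 FPKM or above, averaged over the 4 pools, was at least 20%. This held for 67 of the 83 subunits and for 3572 genes in all. The others were Ndufb2, Ndufb4, Ndufc1, Ndufs5 and Ndufs6 of complex I, Sdhc, Uqcr11, the 7 Cox genes Cox4i2, Cox6a2, Cox6b2, Cox7a1, Cox7b2, Cox8b and Cox8c, and Atp5s and Atp5sl, which are named after ATP synthase but are not among its structural subunits. Measured subunits were expressed above most genes: with all measured genes cut by mean level into 4 equal bins, 34 of the 67 lay in the highest bin, 22 in the next, 10 in the one below and 1 in the lowest.

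The subunits were highest in the pool labelled WT CD8, lowest in WT CD4, and close to each other in the 2 pools labelled KO. The level of a gene in a pool is log2(FPKM + 1) averaged over its cells, and a difference is one such mean minus another. Over the 67 measured subunits the median level was 3.71 and 2.71 in the WT and KO CD8 pools and 2.35 and 2.74 in the WT and KO CD4 pools. KO minus WT therefore ran in opposite directions in the 2 sorts. Under every comparison the cells of both pools overlapped for each subunit, since each had cells at 0.

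**Figure D1:**
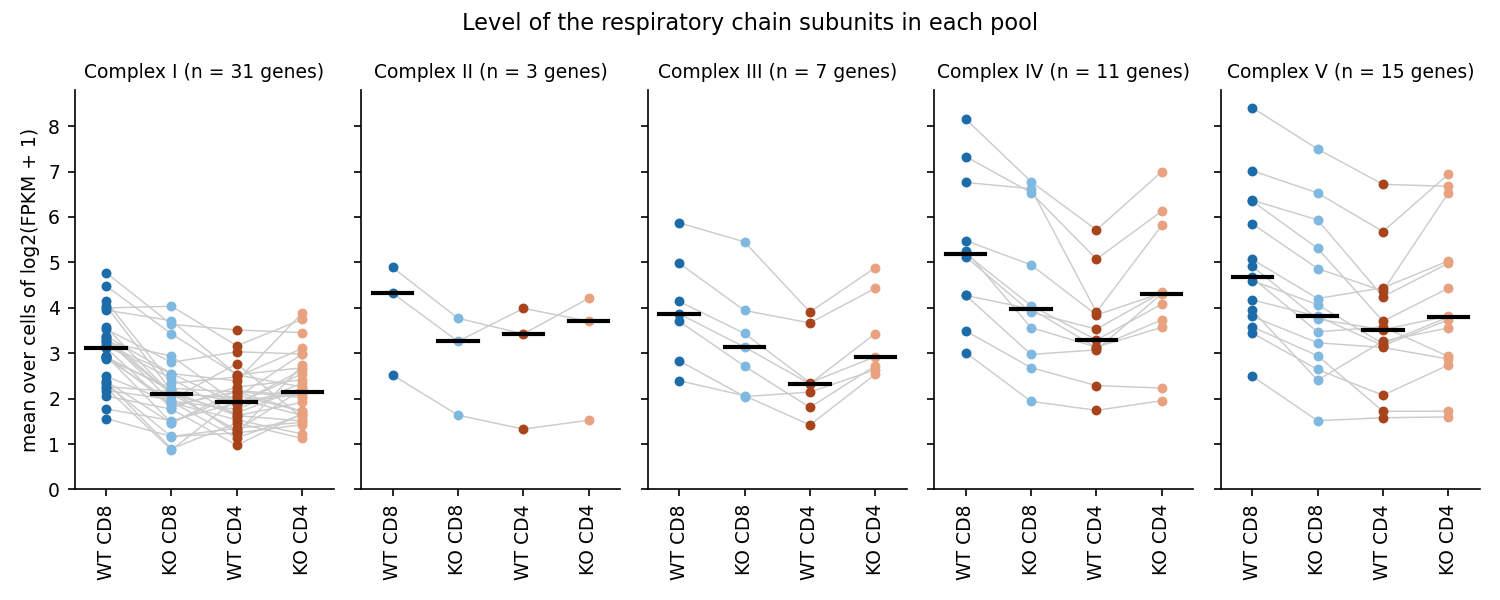
Mean over cells of log2(FPKM + 1) of each measured subunit (points, joined by grey lines across pools) in the 4 pools, with the median over the subunits of a complex as a black bar. The median bar of WT CD8 is the highest in each of the 5 panels, and that of WT CD4 is the lowest in complexes I, III, IV and V; in complex II the lowest is that of KO CD8, 3.26.

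In the CD8 sort, 66 of 67 subunits were lower in the pool labelled KO, against 75.8% of all measured genes. The median difference was -0.88, against -0.35 over all genes. Differences of -1 or below were found for 27 subunits (40.3%) against 14.3% of all genes, and none of the subunits had a difference of 1 or above, as 0.672% of all genes did. The 1 subunit that was not lower was Ndufa4, at 0.04, which carries a complex I name but is known as a subunit of cytochrome c oxidase.

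In the CD4 sort, 50 of 67 subunits were higher in the pool labelled KO and 17 were lower, where 34.3% of all genes were lower. The median difference was 0.51, against 0.21 over all genes. A difference of 1 or above was found for 10 subunits (14.9%) against 10.1% of all genes, and the 1 subunit at -1 or below was Ndufa7, where the share over all genes was 0.896%. In the highest of the 4 bins by level, the median difference over all genes was 0.55 in the CD4 sort and -0.50 in the CD8 sort, so the subunits as a whole stood near highly expressed genes in the CD4 sort and below them in the CD8 sort.

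Between the sorts, 65 of 67 subunits were lower in CD4 than in CD8 cells within WT, against 81.9% of all genes, with a median of -1.27 against -0.53. Of these, 44 (65.7%) were at -1 or below, against 26.4% of all genes, and none was at 1 or above, where 1.54% of all genes were. In the highest of the 4 bins by level, the median over all genes within WT was -1.01, with 454 of 893 genes at -1 or below. Within KO, 29 subunits were lower in CD4 and 38 higher, the share of all genes that were lower being 49.4%. There, 2 subunits were at -1 or below (4.51% of all genes) and 4 at 1 or above (7.89% of all genes), and the median was 0.07. These comparisons share pools, so the same 4 sets of values stand behind all of them.

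**Figure D2:**
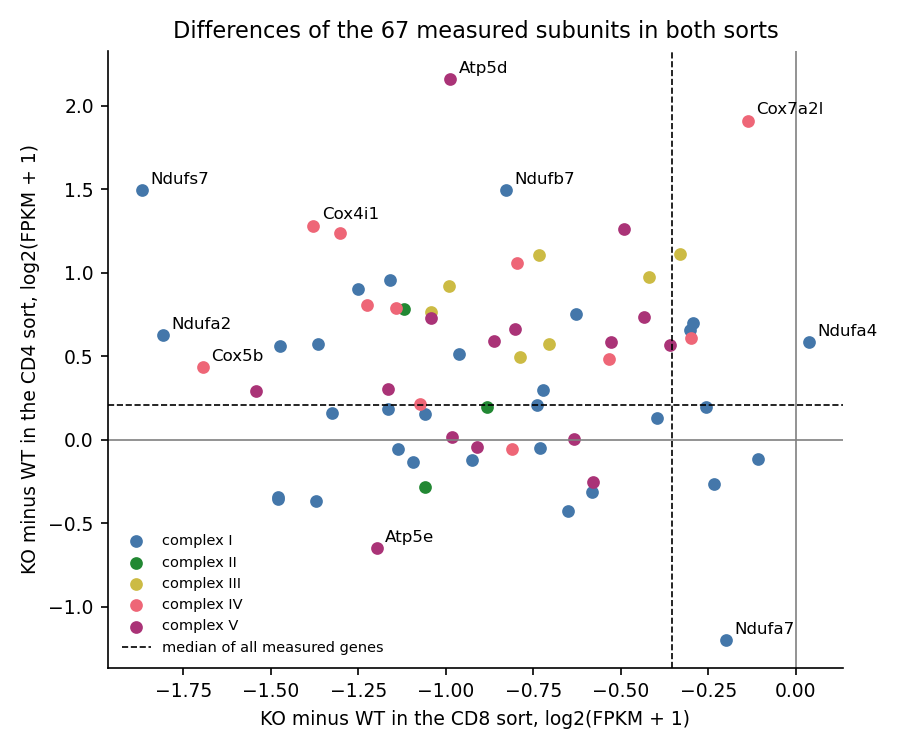
Difference of mean log2(FPKM + 1), KO minus WT, in the CD8 sort (horizontal) and in the CD4 sort (vertical) for the 67 measured subunits, coloured by complex, with the medians of all measured genes as dashed lines. In the upper left part, lower in CD8 and higher in CD4, lie 49 subunits, with Ndufs7 farthest left and Atp5d highest; Ndufa4 alone lies right of 0.

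Lower in KO in the CD8 sort and higher in KO in the CD4 sort was the pattern of 49 of the 67 subunits (73.1%), against 50.4% of all measured genes. A further 17 (25.4%) were lower in KO in both sorts, the same share as the 25.4% over all measured genes. Among them were Atp5e, the epsilon subunit of the ATP synthase head, and Sdhb, the iron-sulfur subunit of complex II. Only Ndufa4 was higher in KO in both, as 15.3% of all measured genes were.

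The differences lay mostly in the share of cells in which a subunit was found, and less in its level where found. In the CD8 sort the median share over the subunits was 50% in WT and 37.2% in KO, the share was lower in KO for 66 subunits, and the median change was -11.2 percentage points, against -5.74 over all genes. Among cells at 1 FPKM or above, the median log2 ratio of the subunits' levels was -0.02, with 36 lower and 31 higher. The median share in the CD4 sort was 30.6% in WT and 37.1% in KO, with a median change of 6.17 points and a ratio where found of -0.10. Exact Clopper-Pearson 95% intervals of the shares, which cover counting error only, lay apart for Ndufa2, Ndufb3 and Ndufs7 in the CD8 sort and for Cox7a2l and Atp5d in the CD4 sort. They lay apart for 20 subunits between CD4 and CD8 within WT and for 0 within KO. The same counts were not made over all genes, so they are not set against other genes. For CD4 minus CD8 within WT, the median share change was -15.8 points, against -9.67 over all genes. Within KO it was 0.60 points, against 0 over all genes. A low share in a library of 1 cell can mean few transcripts or few of them captured, and the files used here do not tell these apart.

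**Figure D3:**
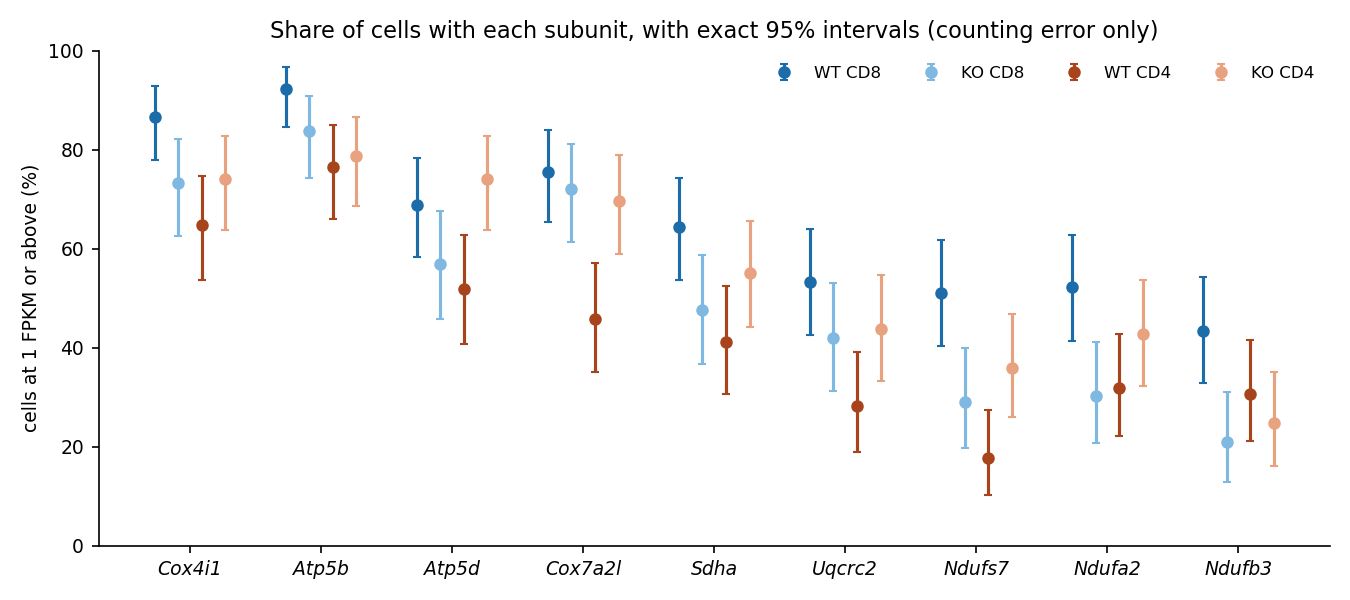
Share of cells at 1 FPKM or above for 9 subunits in the 4 pools, with exact 95% intervals for counting error as bars. Cox4i1 and Atp5b are found in most cells of every pool, from 64.7% to 92.2%, and Ndufs7 ranges from 51.1% in WT CD8 to 17.6% in WT CD4.

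Complex I takes electrons from NADH. Its 31 measured genes were the lowest expressed of the chain, with a median level over the pools of 90.6 FPKM, and were lower in KO by a median of -0.92 in the CD8 sort and higher by 0.18 in the CD4 sort. In the CD8 sort 30 of 31 were lower in KO and 14 were at -1 or below, against 75.8% and 14.3% of all genes. In the CD4 sort 19 were higher and 12 lower, where 34.3% of all genes were lower, and 18 of the 31 lay below the all-gene median. The Q module, which passes electrons to ubiquinone, had medians of -1.14 in the CD8 sort and 0.39 in the CD4 sort over its 6 genes. The N module, which binds NADH, had -0.96 and 0.15 over 9 measured genes, and the membrane arm that pumps protons had -0.83 and 0.18 over 15.

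Ndufs7, which holds the last iron-sulfur cluster before ubiquinone (chromosome 10, 80249105 to 80256794), showed the lowest difference of any subunit in the CD8 sort. Its FPKM had a median of 8.31 and a highest value of 1269 in WT CD8, and a median of 0 in the other pools, where KO CD8 reached 1181, WT CD4 1521 and KO CD4 1578; the lowest value was 0 in each pool. It was found in 46 of 90 WT CD8 cells (51.1%, interval 40.3% to 61.8%), 25 of 86 KO CD8 cells (29.1%, 19.8% to 39.9%), 15 of 85 WT CD4 cells (17.6%, 10.2% to 27.4%) and 32 of 89 KO CD4 cells (36%, 26.1% to 46.8%). The intervals lay apart in the CD8 sort and overlapped in the CD4 sort. Mean log2 levels were 4.04 ± 4.16 (SD over cells) and 2.17 ± 3.52 in the WT and KO CD8 pools and 1.24 ± 2.81 and 2.73 ± 3.82 in the WT and KO CD4 pools, which gave differences of -1.87 and 1.49. An SD near the mean reflects cells at 0 beside cells far above it, and the same held for the other subunits.

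Among the other core subunits of complex I, Ndufs3, in the Q module, had differences of -1.37 in the CD8 sort and 0.58 in the CD4 sort. Ndufs1, the largest subunit, had -1.37 and -0.37, and Ndufv2, which carries an iron-sulfur cluster near the NADH site, -1.33 and 0.16. Ndufv1, which binds NADH itself, had -0.72 and 0.30, and Ndufs8 -0.26 and 0.20. All of these, with Ndufs7, were lower in KO in the CD8 sort, and Ndufs1 alone of them was also lower in the CD4 sort. Ndufs8 was also the only subunit higher in CD4 than in CD8 cells in both genotypes, by 0.13 in WT and 0.59 in KO.

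Accessory subunits of complex I covered the widest range. Ndufa2, in the N module, was found in 52.2% of WT CD8, 30.2% of KO CD8, 31.8% of WT CD4 and 42.7% of KO CD4 cells, with differences of -1.81 and 0.63. Ndufb3, in the membrane arm (chromosome 1, 58586397 to 58595964), was found in 43.3%, 20.9%, 30.6% and 24.7% of the cells of the same pools and was lower in KO in both sorts, by -1.48 and -0.36. Ndufb7, on the outer side of the membrane arm, had the highest CD4 difference of complex I beside Ndufs7, 1.49, with 29.4% of WT and 44.9% of KO CD4 cells. Ndufa7 went the other way in the CD4 sort, with a difference of -1.20 and shares of 34.1% in WT and 21.3% in KO. Ndufa3 and Ndufa8, both of the membrane arm, had small differences with all cells (-0.23 and -0.27, -0.11 and -0.12), and larger ones under most of the choices of cells described below, while Ndufa3 was lower in CD4 than in CD8 cells by -1.43 in WT and -1.46 in KO. Ndufa4 had a median of 3.45 FPKM in WT CD8, 2.09 in KO CD8 and 0 in both CD4 pools, with shares of 50%, 50%, 38.8% and 47.2%. The 5 complex I genes that were not measured were found in 7.87% to 31.1% of the cells of a pool.

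Complex II, succinate dehydrogenase, is also an enzyme of the citrate cycle and has no subunit in mitochondrial DNA. Its 3 measured genes were all lower in KO in the CD8 sort, where 75.8% of all genes were lower. Their medians were -1.06 in the CD8 sort and 0.20 in the CD4 sort. Sdha, the flavoprotein that oxidises succinate, had a median of 134.9 FPKM in WT CD8, 0 in KO CD8 and WT CD4, and 26.5 in KO CD4, with highest values of 1160, 1240, 1145 and 1001. It was found in 64.4%, 47.7%, 41.2% and 55.1% of cells in that order, with differences of -1.12 and 0.78. Sdhb had differences of -1.06 and -0.28 and shares of 51.1%, 39.5%, 47.1% and 44.9%. The membrane anchors Sdhd and Sdhc had -0.88 and 0.20, and -0.85 and 0.65, where Sdhc was found in 25.6% of WT CD8, 9.30% of KO CD8, 9.41% of WT CD4 and 18% of KO CD4 cells and was not measured.

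Complex III passes electrons from ubiquinol to cytochrome c. All 7 measured genes were lower in KO in the CD8 sort (median -0.73) and all 7 were higher in KO in the CD4 sort (median 0.92), where all 7 also lay above the median of all genes. Of all measured genes, 75.8% were lower in KO in the CD8 sort and 34.3% in the CD4 sort. Within WT, the 7 were lower in CD4 than in CD8 cells by a median of -1.54. Uqcrh, the hinge protein that helps bind cytochrome c, was the most highly expressed, with medians of 257.7 FPKM in WT CD8, 270.6 for KO CD8, 0 for WT CD4 and 181.6 for KO CD4, and highest values of 3180, 2764, 2393 and 1408. Its shares of cells were 68.9%, 62.8%, 45.9% and 57.3%, and its differences -0.42 and 0.98. Uqcrc2, a core subunit, was found in 53.3%, 41.9%, 28.2% and 43.8% of cells (differences -0.73 and 1.11), and its partner Uqcrc1 in 60%, 48.8%, 43.5% and 49.4% (differences -1.04 and 0.76). The small subunit Uqcr10 had -0.33 and 1.11, Uqcrq -0.99 and 0.92, Uqcrb -0.79 and 0.49, and the Rieske iron-sulfur protein Uqcrfs1 -0.70 and 0.58. Uqcr11, not measured, was found in 12.4% to 23.3% of the cells of a pool.

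Complex IV, cytochrome c oxidase, reduces oxygen to water. Its 11 measured genes had the highest median level of the 5 complexes, 189.3 FPKM, and all 11 were lower in KO in the CD8 sort (median -1.07, with 6 at -1 or below) and 10 were higher in KO in the CD4 sort (median 0.79, with 4 at 1 or above). All 11 were lower in CD4 than in CD8 cells within WT by at least 1, with a median of -1.64, while the median within KO was 0.01. Cox4i1 (chromosome 8, 120668225 to 120674209), the largest nuclear subunit and a site where ATP is thought to regulate the enzyme, was the most highly expressed subunit of the chain, with a mean of 616 FPKM over the 4 pools. Its FPKM ranged from 0 to 2469 with a median of 589 for WT CD8, to 2129 with 505 for KO CD8, to 2499 with 345.2 for WT CD4, and to 3147 with 486 for KO CD4. It was found in 86.7%, 73.3%, 64.7% and 74.2% of cells, with differences of -1.38 and 1.28.

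Other subunits of complex IV separated the pools in different ways. Cox5b, a peripheral subunit on the matrix side, had the lowest CD8 difference of the complex, -1.70, with medians of 217.6 FPKM in WT CD8 and 0 in KO CD8, and a CD4 difference of 0.43. Its matrix-side partner Cox5a had -0.30 and 0.61. Cox7a2l (chromosome 17, 83501917 to 83514333) was alike in the CD8 pools, with medians of 386 and 465 FPKM and a difference of -0.14. In the CD4 pools its medians were 0 in WT and 202.8 in KO, found in 45.9% (interval 35% to 57%) and 69.7% (59% to 79%) of cells, a difference of 1.91. Cox7a2l was also the subunit with the lowest CD4 minus CD8 difference within WT, -2.86. Cox7c had -1.30 and 1.24, Cox8a -0.80 and 1.06, Cox6c -1.23 and 0.81 and Cox6b1 -1.14 and 0.79, and Cox7a2 was the 1 measured gene of the complex that was not higher in KO in the CD4 sort, at -0.05.

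Isoforms of complex IV that belong to other tissues were found in few cells or none, which by itself does not check that the cells are T cells. Cox4i2 (lung), Cox6a2 and Cox7a1 (heart and muscle), Cox8b (muscle), and Cox6b2, Cox7b2 and Cox8c (testis) are known for such restricted expression. Cox4i2, Cox6a2, Cox7b2 and Cox8c were at 0 in every cell kept, where a count of 0 among 85 to 90 cells allows a share of up to 3.33% to 3.53%. Cox7a1 and Cox8b each reached 1 FPKM in 1 WT CD8 cell (8.13 and 5.41 FPKM) and in no cell of the other pools. Cox6b2 was found in 1 WT CD4 and 3 KO CD4 cells, the highest at 525 FPKM.

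Complex V, ATP synthase, has a catalytic head in the matrix (F1) on a stalk and a membrane part (Fo) that turns as protons pass. All 15 measured genes were lower in KO in the CD8 sort, against 75.8% of all genes. Their median was -0.86, and all 15 lay below the median of all genes there. In the CD4 sort 12 were higher and 3 lower, with a median of 0.57, where 34.3% of all genes were lower. The 5 genes of the head had medians of -0.91 and 0.59, and the 10 of the stalk and membrane part -0.72 and 0.44. Atp5b, the catalytic beta subunit, had the highest share of cells of any subunit on average over the pools, 92.2% of WT CD8, 83.7% of KO CD8, 76.5% of WT CD4 and 78.7% of KO CD4 cells. Its median FPKM was 625, 542, 461 and 388 in the same order, the highest values 2243, 3293, 3144 and 4436, and its differences -0.91 and -0.04.

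Atp5d, the delta subunit between head and stalk (chromosome 10, 80138698 to 80145828), had the highest CD4 difference of any subunit. Its median FPKM was 297.8 and 170.7 in the WT and KO CD8 pools and 2.96 and 393 in the WT and KO CD4 pools, with highest values of 1174, 1541, 1270 and 1564. It was found in 51.8% (interval 40.7% to 62.7%) of WT CD4 and 74.2% (63.8% to 82.9%) of KO CD4 cells, a difference of 2.16, and in 68.9% of WT CD8 and 57% of KO CD8 cells, a difference of -0.99. Levels of the 5 head genes in the CD4 sort did not differ alike: the catalytic partners had 1.26 (Atp5a1, alpha) and -0.04 (Atp5b, beta), the shaft Atp5c1 (gamma) 0.59, Atp5d 2.16, and Atp5e (epsilon) -0.65. Outside the head, Atp5j2, subunit f of the membrane part, had the lowest CD8 difference, -1.54, with shares of 51.1% in WT and 33.7% in KO. Atp5o, which links the head to the outer stalk, had -0.80 and 0.66. Atp5g1, Atp5g2 and Atp5g3 encode the same mature c subunit of the rotating ring from 3 genes, and reads from their shared sequence were divided by estimation, so their split is uncertain. Their differences were -0.63, -0.43 and -0.58 in the CD8 sort and 0.00, 0.73 and -0.25 in the CD4 sort, and Atp5g1 and Atp5g2 were lower in CD4 than in CD8 cells in both genotypes. Processed pseudogenes exist for several small subunits, and how reads were shared with them was not analysed here. The genes Atp5s and Atp5sl came to shares of 0% to 5.56% and 10.6% to 14.4% of the cells of a pool, where 0 of 86 KO CD8 cells allows a share of Atp5s of up to 3.49%.

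The number of subunits found in a cell followed the number of all genes found in it. The median was 29.5 of 67 subunits for WT CD8, 26 for KO CD8, 19 for WT CD4 and 24 for KO CD4, the same order as for all genes. The cells of a pool share a library preparation, and their depth was not analysed. Over the cells of a pool, Pearson's r between subunits found and genes found was 0.913 and 0.850 in the WT and KO CD8 pools. It was 0.879 and 0.929 in the WT and KO CD4 pools. Cells with at least 3000 genes numbered 21 and 3 in the WT and KO CD8 pools and 7 and 9 in the WT and KO CD4 pools. As a share of the FPKM of a cell, which does not depend on the scaling between cells, all subunits together took a median of 1.93% in WT CD8 (quartiles 1.62% and 2.33%), 1.80% in KO CD8 (1.497% and 2.21%), 1.62% in WT CD4 (1.34% and 2.11%) and 1.77% in KO CD4 (1.32% and 2.12%). The pools stood in the same order by this measure with all cells kept, with quartile ranges that overlapped. In cells with at least 2000 genes the order differed, with medians of 2.09%, 1.955%, 2.11% and 1.962% in the order given. By complex, with all cells kept, complex IV took 0.499%, 0.487%, 0.328% and 0.403% of a cell's FPKM, whereas complex II took 0.0814%, 0.0713%, 0.0671% and 0.0681%. The other complexes did not keep this order of pools. Complex I took 0.539%, 0.454%, 0.466% and 0.446%, complex III 0.192%, 0.199%, 0.173% and 0.204%, and complex V 0.5893%, 0.5896%, 0.530% and 0.542%.

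**Figure D4:**
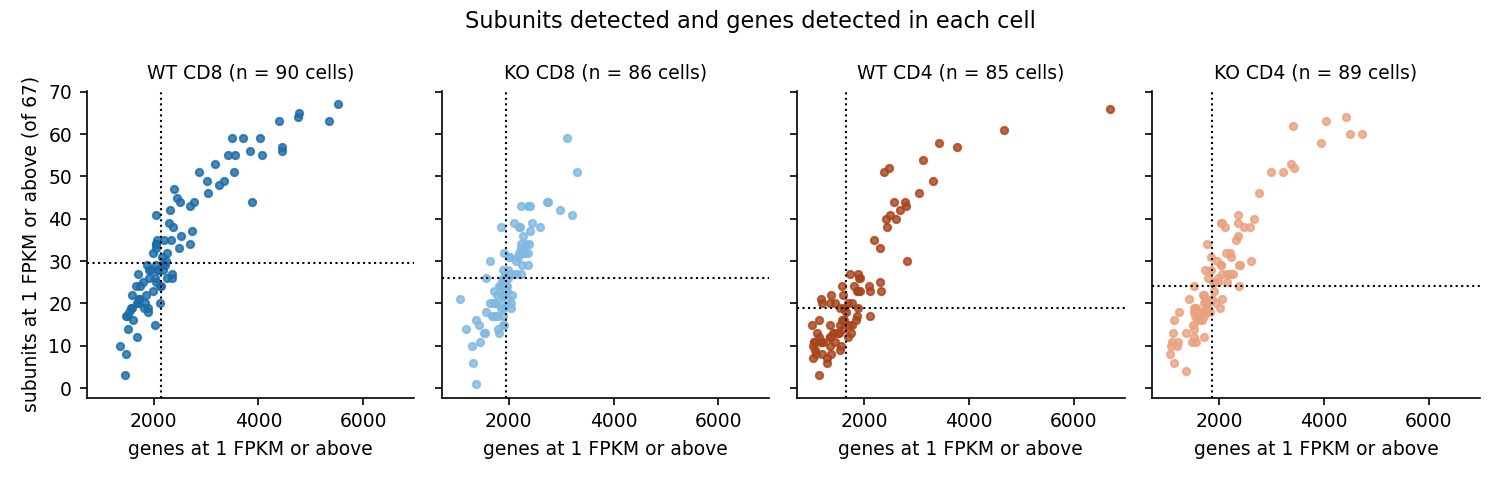
Number of measured subunits at 1 FPKM or above (of 67) against the number of all genes at 1 FPKM or above in each cell, 1 panel per pool, with dotted lines at the medians. In each panel the subunits climb with the genes found, and the WT CD8 panel holds 21 cells with at least 3000 genes against 3 in KO CD8.

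When cells were weighted so that both pools had equal numbers of detected genes, in bins of 500 genes, the median difference over the subunits was 0.09 in the CD8 sort and 0.05 in the CD4 sort, and 0.05 between the sorts within WT. When they were weighted to the overlap of both distributions it was 0.06, 0.09 and -0.05. In cells with 1500 to 2500 genes it was -0.19, 0.21 and -0.46, and in cells with at least 2000 genes -0.73, -0.24 and -0.01. The low level of the subunits as a whole in KO CD8 was thus not seen at equal numbers of detected genes, and the direction in the CD4 sort turned in the cells with most genes. In both weightings, cells in bins that the other pool lacked got no weight. For KO minus WT in the CD8 sort, 76 of 90 WT CD8 and all 86 KO CD8 cells entered. Medians over all genes under these choices are not given here, so the subunits are not set against other genes. Complex III was higher in KO in the CD4 sort under all 4 choices, by 0.46, 0.56, 0.90 and 0.36 in the order given. Complex I in the CD4 sort turned under all 4, from 0.18 to -0.21, -0.19, -0.11 and -0.48, and so did complex V, from 0.57 to -0.17, -0.13, -0.12 and -0.13.

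**Figure D5:**
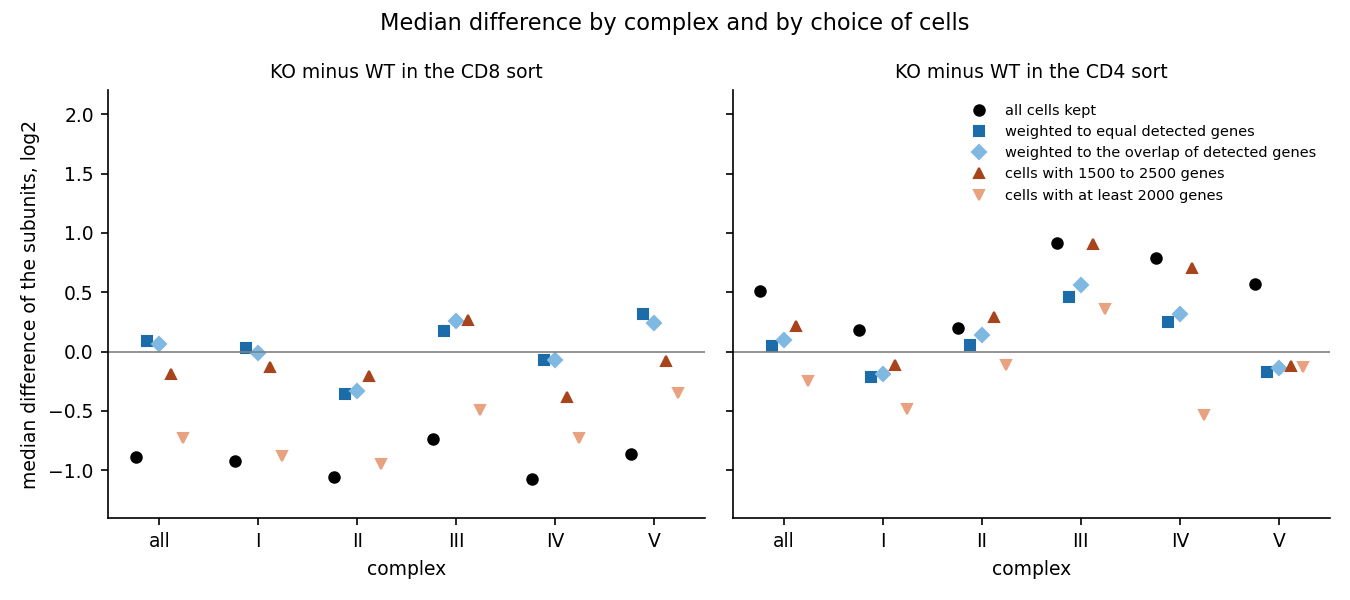
Median difference (log2) over all measured subunits and over those of each complex, KO minus WT, in the CD8 and the CD4 sort, with all cells kept (black) and with 4 choices that match or restrict the number of genes found per cell. In the CD8 sort the values over all subunits run from -0.88 to 0.09, and in the CD4 sort complex III stays between 0.36 and 0.92.

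Of the 51 genes taken by the naming rule, 27 changed sign in the CD8 sort and 10 in the CD4 sort at equal numbers of detected genes, and 4 and 14 did in cells with at least 2000 genes. Some of those that led the comparisons kept their direction. Ndufs7 kept its direction in both sorts, with -1.32, -1.41, -2.06 and -1.60 in the CD8 sort and 1.18, 1.20, 1.46 and 1.84 in the CD4 sort, for equal numbers, the overlap, 1500 to 2500 genes and at least 2000 genes. Ndufa2 was at -0.71, -0.65, -0.66 and -1.64 in the CD8 sort. Cox7a2l in the CD4 sort was at 1.08, 1.17, 1.29 and 1.43, Ndufb7 at 0.98, 1.03, 1.58 and 1.28, and Atp5d at 1.61, 1.49, 1.34 and 0.46. Ndufa7 was lower in KO CD4 under each, at -1.53, -1.58, -2.08 and -2.24. Cox4i1 was at -0.59, -0.51, -0.66 and -0.62 in the CD8 sort and at 0.57, 0.56, 1.02 and -0.19 in the CD4 sort.

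Other leading subunits shrank or turned with the median. Cox5b, at -1.70 in the CD8 sort with all cells, was at -0.51, -0.43, -0.58 and -1.26 under the same choices, and Atp5j2, at -1.54, was at -0.49, -0.40, -0.31 and -1.23. Sdha was at -0.39, -0.36, -0.34 and -0.94 in the CD8 sort, and Sdhb at 0.14, 0.14, -0.21 and -0.65. Ndufs3 was at -0.34, -0.37, -0.87 and -1.30 in the CD8 sort and at 0.26, 0.27, 0.48 and -1.56 in the CD4 sort. Ndufa8, near 0 with all cells, was at 1.17, 1.15, 1.01 and 0.035 in the CD8 sort and at -0.45, -0.35, -0.24 and -1.75 in the CD4 sort. Ndufa3 was at 0.83, 0.85, 0.53 and -0.0078 in the CD8 sort and at -0.59, -0.55, -0.68 and -1.06 in the CD4 sort.

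Subunits of 1 complex did not vary together from cell to cell more than subunits of different complexes. The median Pearson's r over 649 pairs within a complex was 0.218 and 0.0926 in the WT and KO CD8 pools and 0.211 and 0.187 in the WT and KO CD4 pools, and over 1562 pairs across complexes 0.220, 0.102, 0.213 and 0.190. Between subunits and the 859 other genes of the highest bin by level it was 0.165, 0.0777, 0.144 and 0.133. These are descriptions over cells that share their library and differ in the number of genes found.

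Other genes of mitochondrial metabolism differed between the pools to unequal degrees, and some lists lay near the values over all measured genes. Of all genes, 75.8% were lower in KO in the CD8 sort (median -0.35), with 14.3% at -1 or below. In the CD4 sort 34.3% of all genes were lower in KO (median 0.21), with 10.1% at 1 or above. Of 4 measured partners outside the rule, Cyc1 and Cycs, cytochromes c1 and c, had differences of -1.12 and -1.16 in the CD8 sort and 1.06 and 0.13 in the CD4 sort, and Usmg5, a membrane subunit of ATP synthase, -0.86 and 0.49. Ndufab1, the acyl carrier protein bound in complex I, had -0.61 and -0.13. Of 13 measured assembly factors, 11 were lower in KO in the CD8 sort (median -0.44), with 3 at -1 or below: Cox17, a copper chaperone of complex IV, at -1.62, Cox20 at -1.46 and Surf1 at -1.08. In the CD4 sort 10 of the 13 were higher, with a median of 0.12 and none at 1 or above. Among 11 measured carriers and electron entry genes, 10 were lower in the CD8 sort (median -0.88) and all 11 higher in the CD4 sort (median 0.84), led by Timm23, an import channel, at -2.05 and 1.30, and Slc25a5, which exchanges ADP for ATP, at -0.78 and 1.86. The 12 measured genes of the citrate cycle and pyruvate dehydrogenase had medians of -0.69 and 0.39, with Idh3b at -1.61 and 1.21, and 26 mitochondrial ribosomal genes -0.69 and 0.18.

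Lists without a mitochondrial role moved between the pools as well. The 32 measured proteasome subunits had medians of -0.78 in the CD8 sort and 0.46 in the CD4 sort, with all 32 lower in KO CD8, and 12 glycolysis genes -1.02 and 0.37. The 76 cytosolic ribosomal genes had -0.36 and 0.72, and were lower in CD4 than in CD8 cells by -1.85 in WT and -0.67 in KO, where the subunits had -1.27 and 0.07. Glycolysis differed from the subunits between the sorts, with medians of -0.42 in WT and 0.93 in KO. Of 14 regulators of respiratory genes only 3 were measured: Nrf1, an activator of many subunit genes, at 0.18 in the CD8 sort and 0.85 in the CD4 sort, Gabpb2 at 0.16 and 0.26, and Myc at -0.14 and -0.39.

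Within the CD4 sort, cells with Foxp3, the factor of regulatory T cells, held more subunits than cells without it. Foxp3 reached 1 FPKM in 46 of 85 WT and 35 of 89 KO CD4 cells. The median number of subunits was 22.5 with Foxp3 and 15 without in WT, and 29 and 20 in KO, beside medians of 1884 and 1547 genes in WT and 2152 and 1747 in KO. KO minus WT was 0.93 over the subunits among cells with Foxp3 (0.37 over all genes, 59 of 67 higher) and 0.38 among cells without (0.17 over all genes, 46 of 67 higher). Cells with at least 3 of 16 cell cycle genes also held more subunits, 35 against 27.5 in WT CD8 and 29 against 22 in KO CD8. They also held more genes of all kinds, with medians of 2312 against 2034 in WT CD8 and 2202 against 1879 in KO CD8. Among them KO minus WT in the CD8 sort was -0.90 (-0.33 over all genes), and among the others -0.67 (-0.21 over all genes). In the CD4 sort it was 0.42 in both kinds of cell (0.14 and 0.21 over all genes, in the same order).

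Markers of other cell types were at or near 0 in most cells, with single cells far above. At least 2 genes from the lists for melanoma, macrophages, B cells, NK cells and other types were at 1 FPKM or above in 24 WT CD8, 13 KO CD8, 19 WT CD4 and 18 KO CD4 cells. Of the 6 melanoma genes, Tyr was at 1 FPKM or above in 95.3% to 100% of the cells of a pool at a median of 4.91 to 6.71 FPKM, whereas Mlana was found in 1.12% to 4.65% and Pmel in 7.87% to 15.1%. Median summed FPKM of the melanoma list was 7.80 and 7.10 in the WT and KO CD8 pools and 6.40 and 5.37 in the WT and KO CD4 pools, and that of the macrophage list 0 in each. In KO CD4, 1 cell held 742968 FPKM of erythroid genes, which were below 1 FPKM in the other cells of all 4 pools, and the highest cell of the macrophage list held 10930 FPKM. Because Tyr was found in nearly every cell, 1 other melanoma gene was mostly enough to reach 2 genes of that list. At least 2 melanoma genes were found in 19 WT CD8, 13 KO CD8, 15 WT CD4 and 11 KO CD4 cells. Without the cells that carried at least 2 genes of any of these lists, the median difference over the subunits was -0.78 in the CD8 sort and 0.83 in the CD4 sort.

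Promoters of the subunit genes were searched for motifs of factors known to drive them. A link between the motifs and the differences between pools was not tested. The sequences are from RefSeq (GRCm38.p6, the build that mm10 names), from 250 bases before to 50 bases after the start of each gene, on both strands, and 69 of the 83 subunits had one, 57 of them measured. CGCATGCG (NRF1) was found in 12.3% of the measured subunits' promoters, 4.70% of those of measured genes and 1.91% of all 27025 promoters. CCGGAAG (ETS factors such as GABPA) was found in 24.6%, 22.4% and 9.12%, GGGCGG (Sp factors) in 42.1%, 63.1% and 35.9%, and CAAGGTCA (ERR alpha) in 5.26%, 1.19% and 1.53%. AANATGGC (YY1) was found in 22.8%, 9.71% and 6.23%, and in 8 of its 13 measured subunits all matches lay after the start. A match is a description of the letters, and 14 of the 57 held none of the 5 motifs.

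The NRF1 motif lay in 7 measured subunits, Atp5g2, Atp5k, Atp5l, Cox6a1, Ndufa11, Ndufa8 and Uqcrc1, whose KO minus WT differences ran from -1.04 to -0.11 in the CD8 sort and from -0.12 to 0.76 in the CD4 sort. To show how the motifs lie, the 180 bases before the start are given for 3 of these and for Ndufs3, which holds an ETS motif that overlaps an Sp motif; the last base is next to the start, the strand is that of the gene, and capitals mark any of the 5 motifs on either strand.
Cox6a1 (chr5:115348959-115349138, minus strand): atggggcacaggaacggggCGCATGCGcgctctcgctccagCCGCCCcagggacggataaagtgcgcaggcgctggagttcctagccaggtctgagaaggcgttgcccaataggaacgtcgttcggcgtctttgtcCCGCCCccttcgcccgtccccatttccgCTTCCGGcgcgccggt
Ndufa11 (chr17:56717582-56717761, plus strand): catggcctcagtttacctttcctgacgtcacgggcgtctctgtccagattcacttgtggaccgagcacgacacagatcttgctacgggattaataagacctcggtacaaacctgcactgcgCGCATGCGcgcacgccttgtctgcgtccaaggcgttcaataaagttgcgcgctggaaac
Atp5k (chr5:108434400-108434579, minus strand): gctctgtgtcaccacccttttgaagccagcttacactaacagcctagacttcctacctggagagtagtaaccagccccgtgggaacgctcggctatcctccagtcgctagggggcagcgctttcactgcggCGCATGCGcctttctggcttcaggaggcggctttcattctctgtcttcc
Ndufs3 (chr2:90904722-90904901, minus strand): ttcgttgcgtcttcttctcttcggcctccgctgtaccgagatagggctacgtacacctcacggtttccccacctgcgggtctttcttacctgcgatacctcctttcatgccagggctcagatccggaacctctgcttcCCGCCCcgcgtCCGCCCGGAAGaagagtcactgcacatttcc

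Counted from the start, the first base of the NRF1 motif lay at -161 in Cox6a1, -59 in Ndufa11 and -49 in Atp5k. In Cox6a1 it stood with Sp motifs and an ETS motif at -16. The 4 genes differed by -0.53 (Cox6a1), -0.40 (Ndufa11), -0.98 (Atp5k) and -1.37 (Ndufs3) in the CD8 sort and by 0.48, 0.13, 0.02 and 0.58 in the CD4 sort.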

How the data were processed

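Single T cells were profiled by Smart-seq2 with 21 cycles of cDNA amplification and Nextera XT libraries, per the labels' protocols. The authors deposited gene-level FPKM normalized between cells by TMM, made with Bowtie and RSEM on mm10 per the submitters' processing notes and the table's name; versions are not given in the sources used here. RSEM divides reads that fit several genes by estimation, which can shift values between near-identical copies. Counts of reads in each cell were not analysed, and the number of genes found is given in their place. The table held 23366 genes in 375 columns: 371 cells, and 4 columns named Population that were not used. 4 entries with repeated symbols were left out.

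The 350 cells in which 1000 or more genes reached 1 FPKM were used. Levels are means of log2(FPKM + 1), a scale that understates changes of low genes. Cells were grouped by their titles and genotype tags. With 1 pool per group there is no test, and called means a difference of at least 1 in size. Shares carry exact Clopper-Pearson 95% intervals, and a share of 0 the limit that 3 counts allow, both for counting error only. The members and lists were chosen with earlier results of these data known. Named genes were, in each sort and complex, the 2 lowest and 2 highest differences, the Sdh genes, the catalytic core, tissue-restricted isoforms, the 3 highest and 3 lowest levels, and the largest sort differences of 1 sign (3 each way); 1 gene that this rule takes in is not reported here. Alternatives changed the pseudocount (0.1, 10), the gene filter, the cell filter, scaling, weighting by detected genes and the cells left out. Python 3.11.15, numpy 2.4.6, pandas 2.3.3, scipy 1.17.1 and matplotlib 3.10.9 were used. A check of the arithmetic put known fold changes into real WT CD8 cells. It did not cover the weighting, the shares of cells or the gene lists.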

Additional observations from a re-analysis of the deposited data

Results flagged for a closer look

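The median difference of the subunits between the pools labelled KO and WT had, with all cells kept, opposite signs in the CD8 and the CD4 sort, over all subunits and in each complex. It was -0.88 and 0.51 over all 67 measured subunits, -0.92 and 0.18 in complex I, -1.06 and 0.20 in complex II, -0.73 and 0.92 in complex III, -1.07 and 0.79 in complex IV, and -0.86 and 0.57 in complex V, with the CD8 sort first. Each pool is 1 sample, so the difference between the sorts was not tested. Over all measured genes the medians were -0.35 and 0.21, and the median number of genes found per cell was 2148 in WT CD8 and 1955 in KO CD8, against 1661 in WT CD4 and 1868 in KO CD4.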

How the results depend on the processing

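Depth is an open limit of these data, beside the lack of replicates, because the reads of each cell were not analysed. The number of genes found in a cell differed between the pools, and its relation to depth was not tested. The median differences (over all subunits and complexes I to V, 4 comparisons) and the counts of subunits at a difference of 1 or more in either direction, 27, 11, 44 and 6 in the order KO minus WT in CD8, KO minus WT in CD4, CD4 minus CD8 in WT and CD4 minus CD8 in KO, were recomputed under each alternative. Of the recomputed values, 92 moved by more than the spread allowed (0.5 for a median, a factor of 1.5 for a count). A further 21 medians, not among the 92, changed sign from a size of 0.5 or more and so also moved by more than 0.5. The sign changed for 54 medians, 21 of which were 0.5 or more in size with all cells and 33 smaller. None moved so far with cells of at least 500 genes, with each cell rescaled to a common total, or without the 5 cells of each pool with the most genes. Rescaling over genes that are not mitochondrially encoded gave the same table as plain rescaling, since none of those 13 symbols was found, and was not run apart. No paired analysis was possible because the cell numbers in the titles do not repeat between pools and each pool is 1 sample. The values that moved so far, or turned from 0.5 or more, follow, and single genes are listed where a difference of 1 or more turned, with all for all subunits and Roman numerals for complexes. With weights that gave the pools the same spread of genes found per cell, the medians of KO minus WT in CD8 were 0.086 (all), 0.030 (I), -0.35 (II), 0.17 (III), -0.069 (IV), 0.32 (V). KO minus WT in CD4 gave 0.25 (IV), -0.17 (V). For CD4 minus CD8 in WT they were 0.048 (all), 0.16 (I), -0.51 (II), -0.30 (III), -0.093 (IV), 0.39 (V). The counts became 3 (KO minus WT in CD8), 5 (KO minus WT in CD4), 10 (CD4 minus CD8 in WT). In CD8 a difference of 1 or more turned for Sdhb (0.14). In WT, CD4 minus CD8 turned from -1 or below for Cox5a (0.30), Atp5j (0.60), Atp5a1 (0.69), Atp5d (0.70), Atp5o (0.26), Ndufa3 (0.17). With weights to the overlap of the pools in genes found, the medians of KO minus WT in CD8 were 0.064 (all), -0.011 (I), -0.33 (II), 0.26 (III), -0.067 (IV), 0.24 (V). KO minus WT in CD4 gave -0.13 (V). For CD4 minus CD8 in WT they were -0.045 (all), 0.054 (I), -0.054 (II), -0.41 (III), -0.37 (IV), 0.24 (V). The counts became 4 (KO minus WT in CD8), 6 (KO minus WT in CD4), 9 (CD4 minus CD8 in WT). In CD8 a difference of 1 or more turned for Sdhb (0.14). In WT, CD4 minus CD8 turned from -1 or below for Atp5j (0.22), Cox7b (0.037), Atp5a1 (0.41), Atp5d (0.41), Atp5o (0.16). In cells with 1500 to 2500 genes, the medians of KO minus WT in CD8 were -0.19 (all), -0.13 (I), -0.21 (II), 0.27 (III), -0.38 (IV), -0.077 (V). KO minus WT in CD4 gave -0.12 (V). For CD4 minus CD8 in WT they were -0.46 (all), -0.34 (I), -0.53 (II), -0.87 (III), -0.27 (V). CD4 minus CD8 in KO gave -0.24 (III). The counts became 5 (KO minus WT in CD8), 25 (CD4 minus CD8 in WT), 11 (CD4 minus CD8 in KO). In WT, CD4 minus CD8 turned from -1 or below for Atp5j (0.11), Uqcrc2 (0.063), Atp5o (0.092). In cells with at least 2000 genes, the medians of KO minus WT in CD8 were -0.35 (V). KO minus WT in CD4 gave -0.24 (all), -0.48 (I), 0.36 (III), -0.53 (IV), -0.13 (V). For CD4 minus CD8 in WT they were -0.011 (all), -0.011 (I), 0.11 (II), -0.11 (III), -0.23 (IV), 0.0096 (V). CD4 minus CD8 in KO gave 1.07 (II). The counts became 21 (KO minus WT in CD4), 20 (CD4 minus CD8 in WT), 25 (CD4 minus CD8 in KO). In CD4 one turned for Cox4i1 (-0.19). In WT, CD4 minus CD8 turned from -1 or below for Sdha (0.11), Uqcrq (0.060), Cox5a (0.27), Atp5j (0.75), Cox7a2 (0.46), Atp5d (0.81), Ndufs3 (0.24), Atp5o (0.039). As the log2 ratio of mean FPKM, the medians of KO minus WT in CD8 were -0.32 (all), -0.41 (I), -0.51 (II), -0.19 (III), -0.40 (IV), -0.26 (V). KO minus WT in CD4 gave 0.37 (III), 0.26 (IV). For CD4 minus CD8 in WT they were -0.48 (all), -0.47 (I), -0.10 (II), -0.51 (III), -0.68 (IV), -0.37 (V). The counts became 6 (KO minus WT in CD8), 6 (KO minus WT in CD4), 9 (CD4 minus CD8 in WT), 3 (CD4 minus CD8 in KO). With a pseudocount of 0.1, the medians of CD4 minus CD8 in WT were -1.82 (all), -1.81 (II), -2.35 (III), -2.21 (IV), -1.91 (V). The counts became 45 (KO minus WT in CD8), 21 (KO minus WT in CD4), 14 (CD4 minus CD8 in KO). With a pseudocount of 10, the medians of CD4 minus CD8 in WT were -0.69 (all), -0.62 (II), -0.81 (III), -1.04 (IV), -0.85 (V). The counts became 3 (KO minus WT in CD8), 2 (KO minus WT in CD4), 19 (CD4 minus CD8 in WT), 1 (CD4 minus CD8 in KO). With genes found in at least 50% of cells, the medians of KO minus WT in CD4 were 0.78 (II). The counts became 8 (KO minus WT in CD8), 6 (KO minus WT in CD4), 17 (CD4 minus CD8 in WT), 2 (CD4 minus CD8 in KO). With no filter on genes, the medians of KO minus WT in CD8 were -0.42 (IV). Without cells carrying markers of another cell type, the medians of KO minus WT in CD8 were -0.48 (II). The counts became 28 (KO minus WT in CD4). Without cells with Foxp3, the medians of KO minus WT in CD4 were 0.065 (V). The counts became 18 (KO minus WT in CD4). At a difference of at least 0.5, the counts became 52 (KO minus WT in CD8), 36 (KO minus WT in CD4), 28 (CD4 minus CD8 in KO).

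The cause of each change was not tested, except that fewer cells or genes enter the restricted settings. In the restricted settings the pools held 58, 71, 41 and 61 cells (1500 to 2500 genes) and 59, 38, 25 and 37 cells (at least 2000 genes) in the order WT CD8, KO CD8, WT CD4 and KO CD4. Over the 51 named genes, 10.6% of 2676 values changed sign, 25 of them from a difference of 1 or more in size, and 1 other value moved by more than the SD over cells. In the order of the 4 comparisons, 27, 10, 19 and 5 of the 51 turned at equal numbers of genes found, 26, 9, 17 and 6 with the overlap, 21, 6, 12 and 4 in cells with 1500 to 2500 genes, and 4, 14, 20 and 8 in those with at least 2000. The weighting to the overlap, the window of 1500 to 2500 genes and the removal of the 5 cells were chosen after seeing the data.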

Other observations

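Slc25a4 and Slc25a5, the 2 carriers that exchange ADP for ATP across the inner membrane, were lower in CD4 than in CD8 cells within WT, Slc25a4 by more than any measured subunit of complex V and Slc25a5 by about as much as Atp5h, at -2.65 the lowest of that complex. Slc25a5 was found in 86.7% of WT CD8, 84.9% of KO CD8, 57.6% of WT CD4 and 82% of KO CD4 cells, and Slc25a4 in 63.3%, 54.7%, 25.9% and 44.9%. CD4 minus CD8 was -2.66 in WT and -0.01 in KO for Slc25a5, and -3.16 and -0.90 for Slc25a4. The phosphate carrier Slc25a3 was found in 90%, 80.2%, 78.8% and 87.6% of cells, with -1.04 and 0.82. Ogdh, of the citrate cycle, stood apart in being found in 98.8% to 100% of the cells of each pool at 32.2 to 51.7 FPKM on average. These genes were singled out after their values were seen.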
